A study of Mus musculus with 7 samples.

Results

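The EGF family described here comprises 10 genes, taken by symbol from the count tables: the ligands Egf, Tgfa, Areg, Ereg, Btc and Hbegf, the receptors Egfr, Erbb2 and Erbb3, and the receptor inhibitor Lrig1. All 10 were found among the 52550 genes of the tables, and 9 passed the low-count filter that left 17449 genes for testing. The cells were sorted Paneth cells, which sit at the bottom of crypts in the small intestine and release antimicrobial granules. Their donors were C57BL/6J mice with the allele Lgr5-EGFP-IRES-CreERT2, which places a fluorescent reporter and an inducible Cre at the stem cell gene Lgr5 and was carried by every mouse, controls included. The 4 DSS libraries came from mice given 3% dextran sulfate sodium, which damages the gut epithelium, in the drinking water for 7 days and killed 3 days after its removal, at 12 weeks of age in DSS 1 and 10 weeks in DSS 2 to 4. The 3 water libraries came from mice kept on plain water, at 12 weeks in water 1 and water 2 and 10 weeks in water 3. Nothing in the labels states that each library is 1 animal, so the p-values reflect how these libraries vary, which may be technical.

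EGF family ligands are made as membrane proteins whose outer part is cut free by sheddases such as ADAM17 and ADAM10. They bind receptors of the ERBB family, which pair up and signal through adaptor proteins to the ERK and PI3K pathways. EGF, TGF-alpha and amphiregulin bind EGFR, while betacellulin, HB-EGF and epiregulin bind EGFR and ERBB4. ERBB2 binds no known ligand and acts as a partner, and ERBB3 binds neuregulins and has little kinase activity of its own. LRIG1 lowers the amount of ERBB receptors and marks many intestinal stem cells. In the crypt base, EGF from Paneth cells is known as a niche factor for the neighbouring stem cells, and EGF is a standard component of intestinal organoid medium.

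Total counts ran from 23179147 to 32451653 in DSS libraries and from 23175708 to 25894328 in water libraries. Levels are given as CPM, counts scaled to a common library size with TMM factors, a normalisation that assumes most genes do not differ. Where genes are compared with each other, levels are given per kilobase of exon (RPKM). The summed level of 10 Paneth markers was 215100, 171000, 123000 and 132500 CPM in DSS 1 to 4, against 254200, 266800 and 262200 CPM in water 1 to 3. Tuft cell markers, another epithelial type that the gate could hold, summed to 557, 1033, 1041 and 531 CPM in DSS 1 to 4 and to between 560 and 621 CPM in water. Enteroendocrine markers summed to 896, 546, 1231 and 1221 CPM in DSS 1 to 4, against 74.3, 1489 and 2670 CPM in water 1 to 3. Goblet markers summed to between 5266 and 9927 CPM in DSS and between 6031 and 7433 CPM in water, and Clca1 among them had 193, 755, 210 and 585 CPM in DSS 1 to 4, against 74.4, 104 and 114 CPM in water 1 to 3. Agr2, also a goblet marker, went the other way, with every DSS library below every water library. It had 642, 709, 520 and 942 CPM in DSS 1 to 4, against 965, 1085 and 946 CPM in water 1 to 3. Stem cell markers summed to between 4320 and 5289 CPM in DSS and between 4445 and 5304 CPM in water. For enterocyte markers the sums were between 576 and 688 CPM in DSS and between 598 and 682 CPM in water. The sum of 5 mesenchymal markers stayed at or below 0.324 CPM in every DSS library and 0.126 CPM in every water library. No RNA isolation day held both groups, so day and treatment cannot be told apart. The names of the count tables carry the number 6 for DSS 4 and the 3 water libraries and 8 for DSS 1 and DSS 3, while DSS 2 is a merged file. This number is read here as the lane, which is an assumption.

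In the sorted cells Lrig1, Erbb3 and Erbb2 were more abundant than every ligand, while Egfr stood at the level of Tgfa and Egf. The part of stem cells and other cell types in these levels was not tested. Lrig1 averaged 36.7 ± 3.30 RPKM in DSS and 35.4 ± 1.98 RPKM in water (SD, n = 4 and 3, as in all such pairs below), and Erbb3 36.6 ± 3.58 RPKM in DSS and 35.2 ± 0.883 RPKM in water. Their ranges overlapped, and Lrig1 was the higher of both in 3 of 7 libraries, so no order between them holds. Erbb2 followed at 13.6 ± 0.302 RPKM in DSS and 11.3 ± 1.21 RPKM in water, below Erbb3 in 7 of 7 libraries.

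Egfr, Tgfa and Egf formed the next tier. Egfr averaged 2.88 ± 0.185 RPKM in DSS and 3.09 ± 0.0440 RPKM in water, Tgfa 2.99 ± 0.241 and 2.83 ± 0.249 RPKM, and Egf 2.31 ± 0.620 and 2.95 ± 0.0454 RPKM in the same groups. Their ranges overlapped, with Egfr above Tgfa in 4 of 7 libraries and Tgfa above Egf in 5 of 7. Hbegf, at 1.14 ± 0.332 RPKM in DSS and 0.849 ± 0.0674 RPKM in water, and Btc, at 0.885 ± 0.152 and 0.872 ± 0.0651 RPKM, lay below Egf in 7 of 7 libraries and overlapped each other. Areg and Ereg were at the edge of detection, between 0.0214 and 0.143 RPKM in DSS and between 0.119 and 0.198 RPKM in water.

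**Figure D1:**
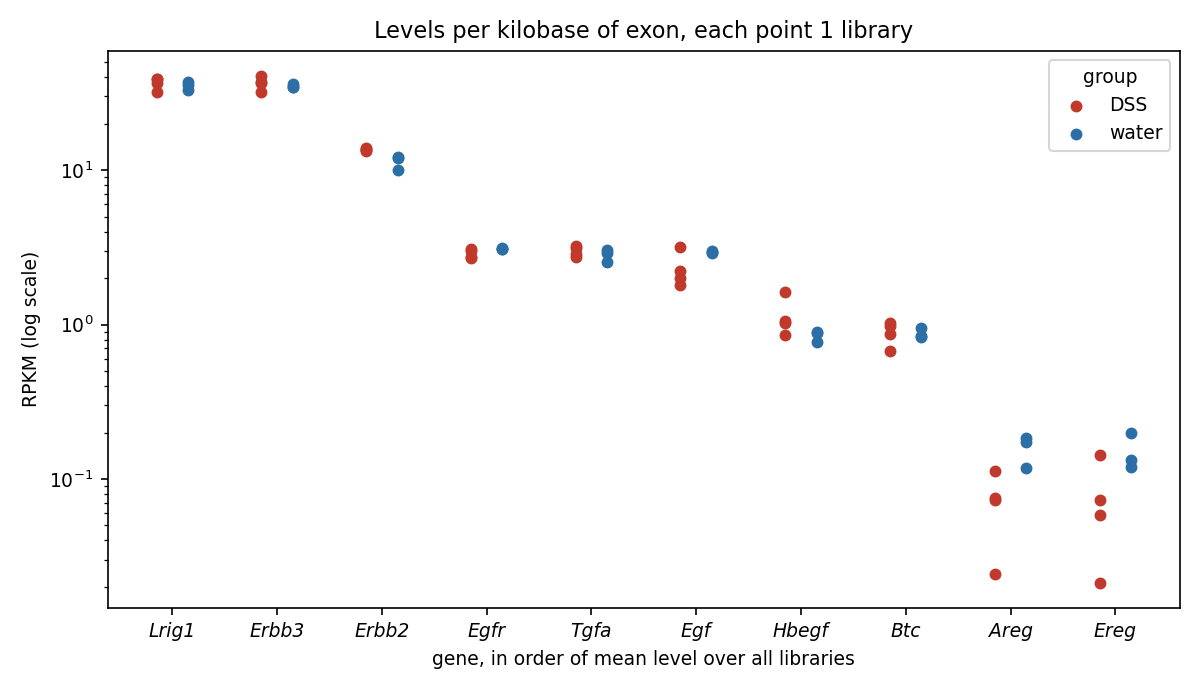
Level per kilobase of exon (RPKM, log axis) of the 10 genes, in order of their mean over all libraries, with 1 point per library, DSS in red and water in blue. Lrig1 and Erbb3 sit between 31.9 and 40.7 RPKM in DSS and between 33.2 and 37.1 RPKM in water, Egfr, Tgfa and Egf follow, with Egf at 1.80 to 3.20 RPKM in DSS and 2.92 to 3.00 RPKM in water, and Areg and Ereg below 0.2 RPKM.

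The comparison of DSS with water asks how the sorted cells differ 3 days after a 7-day course of DSS. None of the 9 tested genes passed edgeR's quasi-likelihood test at an adjusted p under 0.05 (Benjamini-Hochberg over all genes), and neither did any other gene (0% of those tested in either direction). At an unadjusted p under 0.05, 1 of the 9 was higher in DSS and 0 were lower, against 8.36% and 7.35% of all tested genes. Every DSS library lay above every water library for 1 of the 9, against 7.40% of all tested genes, and below for 0 of the 9, against 7.51%. The median log2 change of the 9 was 0.05, beside -0.0015 for all tested genes. DESeq2 called 2.61% of 13315 genes higher and 2.23% lower, and 0 of the 8 members it adjusted. These shares are near the background, and with 9 genes a count of 1 cannot be told from it. In bulk RNA of this kind, fewer cells of a type and less RNA per cell cannot be told apart.

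Egf, which encodes the founding ligand of the family, had 36.1, 22.7, 25.1 and 20.3 CPM in DSS 1 to 4, against 33.1, 32.9 and 33.9 CPM in water 1 to 3. DSS 2, DSS 3 and DSS 4 lay below all water libraries, while DSS 1 lay above them, so the groups overlapped. The 3 water values lay within about 1 CPM of each other. The log2 change was -0.36 ± 0.17 (SE), with a 95% interval of -0.74 to 0.03 (edgeR adjusted p = 0.352).

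Egf is the ligand whose call depended on a single library. Without DSS 1 the log2 change was -0.55, and Egf passed with an edgeR adjusted p of 0.0400, as 1 of 135 genes lower in DSS, beside 168 higher. The other 3 DSS libraries came from mice of 10 weeks. Among libraries of that age alone the log2 change was -0.58, with water 3 as the only control. Among lane 6 libraries, with DSS 4 alone on DSS, it was -0.72. The change was weaker at -0.25 with age as a covariate (edgeR adjusted p = 0.618), -0.26 without DSS 4 and -0.14 with library totals only. It was below 0 in each of the 18 alternatives.

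The Paneth marker sum given above was also highest in DSS 1 among the DSS libraries, and below all water libraries in each of the 4. The markers differed among themselves: Lyz1, which encodes lysozyme, had 77960, 54480, 39040 and 40840 CPM in DSS 1 to 4, against 101600, 108200 and 99880 CPM in water 1 to 3, while Mmp7, a protease that activates alpha-defensins, had 3071, 3105, 2524 and 2196 CPM in DSS 1 to 4, against 2867, 3401 and 3546 CPM in water 1 to 3. Per 100000 CPM of the 10 summed markers, Egf had 16.78, 13.24, 20.45 and 15.31 CPM in DSS 1 to 4. In water 1 to 3 it had 13.02, 12.32 and 12.91 CPM, below every DSS library. The marker sum was itself lower in every DSS library, so a gene of unchanged CPM would also be higher on this scale. The part of the Paneth markers in the Egf values was not tested.

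Among the 9124 genes that averaged 3 log2 CPM or more, those whose levels followed Egf most closely over the 7 libraries were Dhrs4, a dehydrogenase (Pearson r = 0.982), Mmp20, a matrix metalloprotease (0.965), and Defa23, an alpha-defensin of Paneth granules (0.962). Defa23 had 7668, 5092, 5757 and 5341 CPM in DSS 1 to 4 and between 7359 and 7934 CPM in water. Alpha-defensin genes are near-identical copies, so reads can be split between them and this value is uncertain. The 7 points share their group, library and depth, and the genes were sought as the highest of many, so these coefficients are a description.

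**Figure D2:**
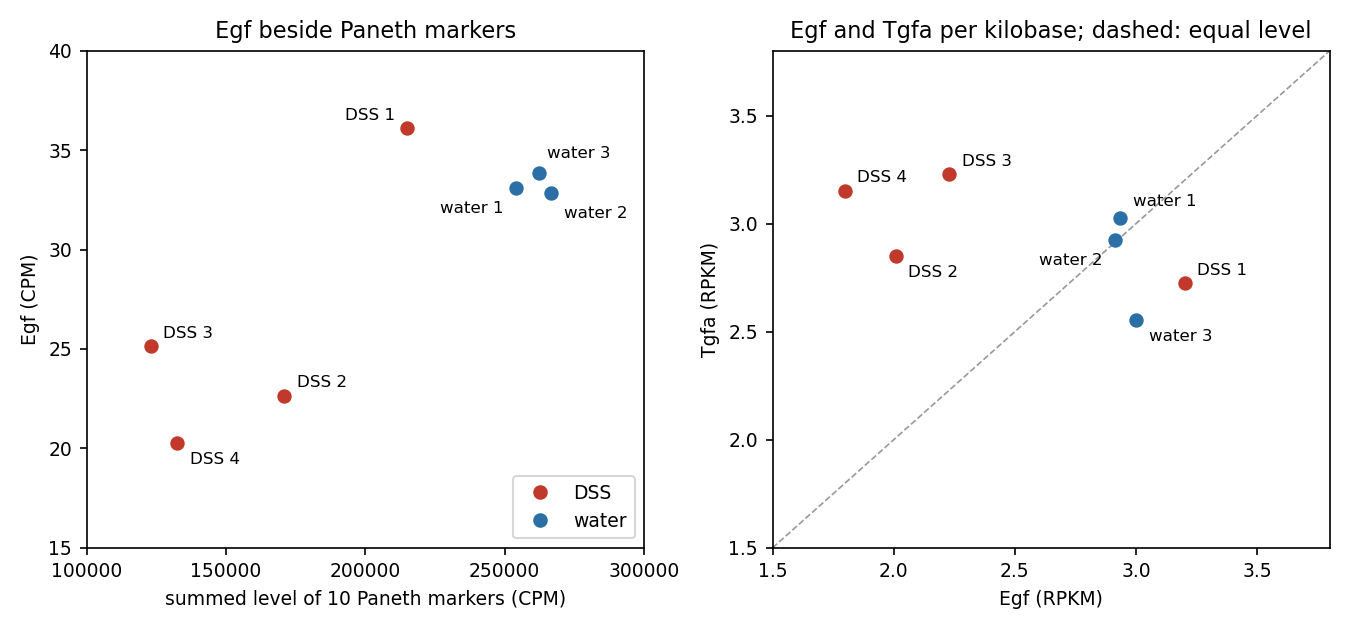
Left, Egf (CPM) against the summed level of 10 Paneth markers (CPM). Right, Tgfa against Egf (both RPKM), with the dashed line at equal levels; each point is 1 library, DSS in red and water in blue. DSS 2, DSS 3 and DSS 4 lie at 22.7, 25.1 and 20.3 CPM of Egf and above the line of equal levels, while DSS 1, at 36.1 CPM, lies near the water libraries.

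Upstream sequence is shown for Egf, as the ligand whose call depended on 1 library, for Erbb2, as the member with the smallest p, and for Areg, as an inducible ligand that was almost silent here. The sequences are the 250 bases before the annotated start, from RefSeq (GRCm38.p6), on the strand of the gene, 5′ to 3′. Egf is on chr3:129755323-129755572 (minus strand), Erbb2 on chr11:98412234-98412483 (plus strand) and Areg on chr5:91139349-91139598 (plus strand). Capitals mark matches on either strand to the TATA box TATAAA or the cAMP response element TGACGTCA. The AP-1 site TGANTCA and the TCF/LEF site ATCAAAG were searched as well.
Egf: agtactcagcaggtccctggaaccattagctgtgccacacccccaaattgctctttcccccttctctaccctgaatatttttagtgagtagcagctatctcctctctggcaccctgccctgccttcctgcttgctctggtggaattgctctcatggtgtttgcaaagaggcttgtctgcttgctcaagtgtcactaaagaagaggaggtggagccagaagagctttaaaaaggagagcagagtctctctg
Erbb2: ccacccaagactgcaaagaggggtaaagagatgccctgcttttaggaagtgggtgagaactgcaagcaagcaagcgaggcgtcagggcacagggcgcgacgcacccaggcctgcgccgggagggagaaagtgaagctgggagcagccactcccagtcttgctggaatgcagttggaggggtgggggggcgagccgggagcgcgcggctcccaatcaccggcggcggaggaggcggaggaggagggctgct
Areg: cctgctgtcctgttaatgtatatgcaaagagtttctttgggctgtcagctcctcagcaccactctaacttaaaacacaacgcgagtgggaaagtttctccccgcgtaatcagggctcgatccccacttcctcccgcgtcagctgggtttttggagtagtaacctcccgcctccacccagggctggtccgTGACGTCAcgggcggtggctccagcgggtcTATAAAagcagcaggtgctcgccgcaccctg

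The Areg window held a cAMP response element starting 61 bases and a TATA box starting 31 bases before the start. Of all 32851 promoter windows of this length, 1.55% held TGACGTCA, 12.4% TATAAA, 6.75% TGANTCA and 3.21% ATCAAAG. The windows of Egf and Erbb2 held none of these letters, nor did those of Tgfa, Btc, Egfr and Lrig1 or a second Egf start 30230 bases inside the gene, which says only that these letters are not in these windows. Windows were read for 7 of the 10 members. Entries on chromosome 18, which holds Hbegf, were left out for members, and no entry matched Erbb3 or Ereg. The Egf window had 50.4% G and C and the Erbb2 window 66%.

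Tgfa, which encodes TGF-alpha, an EGFR ligand of epithelial cells, had 17.7, 18.5, 20.9 and 20.5 CPM in DSS 1 to 4, against 19.6, 19.0 and 16.6 CPM in water 1 to 3. The groups overlapped over most of their range. Its log2 change was 0.08 ± 0.09 (SE), with a 95% interval of -0.13 to 0.29 (edgeR adjusted p = 0.738), which leaves room for a fold between 0.912 and 1.22. Per kilobase, the ratio of Tgfa to Egf was 0.851, 1.42, 1.45 and 1.75 in DSS 1 to 4, against 1.03, 1.003 and 0.850 in water 1 to 3. On this scale Tgfa was the more abundant of both ligands by over 1.4 times in 3 of 4 DSS libraries, and in water they were close to equal. The ratio rests on the exon lengths of the count tables, 11275 bases for Egf and 6490 for Tgfa. In CPM, Egf was above Tgfa in every library but DSS 4, with 20.3 CPM of Egf and 20.5 CPM of Tgfa. This ratio was chosen after its values were seen and was not tested.

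Hbegf, which encodes heparin-binding EGF, a ligand induced early in wounded epithelium, had 2.03, 2.44, 3.85 and 2.52 CPM in DSS 1 to 4, against 1.83, 2.11 and 2.10 CPM in water 1 to 3. DSS 3 stood highest and DSS 1 lay among the water libraries. The log2 change was 0.43 ± 0.23 (SE), with a 95% interval of -0.09 to 0.95 (edgeR adjusted p = 0.405). Without DSS 3 it was 0.22.

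Btc, which encodes betacellulin, had 3.92, 3.06, 4.40 and 4.61 CPM in DSS 1 to 4, against 3.79, 3.75 and 4.28 CPM in water 1 to 3. DSS 2 was the lowest library and DSS 4 the highest, with the water libraries between them. The log2 change was 0.02 ± 0.17 (SE), with a 95% interval of -0.35 to 0.39 (edgeR adjusted p = 0.971).

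Areg, which encodes amphiregulin, had 2, 1, 4 and 3 counts in DSS 1 to 4, against 5, 3 and 5 counts in water 1 to 3, and did not pass the filter. Summed over the group, this was 0.0905 CPM of raw counts in DSS, with an exact Poisson 95% interval of 0.0434 to 0.167, and 0.177 CPM in water, with an interval of 0.0941 to 0.302. Every DSS library lay below every water library, between 0.0294 and 0.137 CPM in DSS and between 0.144 and 0.223 CPM in water, and the Poisson intervals overlapped. Without the low-count filter, its log2 change was -1.14 ± 0.68 (SE; edgeR unadjusted p = 0.107, adjusted p = 0.647), on 1 to 5 counts per library. These intervals cover counting error only.

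Ereg, which encodes epiregulin, had 2, 20, 7 and 10 counts in DSS 1 to 4, against 11, 17 and 13 counts in water 1 to 3. It passed the filter through the water group, where 3 of 3 libraries reached its limit of 0.392 CPM, against 1 of 4 on DSS, so an estimate below 0 was favoured by its selection. That log2 change was -0.93 ± 0.49 (SE), with a 95% interval of -2.04 to 0.18 (edgeR adjusted p = 0.395). DSS 1, with 2 counts, was the lowest library.

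Hbegf and Areg are known to be induced early by stress, which dissociation of tissue can cause, so a list of 10 such genes was set beside them. The list summed to 290, 475, 326 and 319 CPM in DSS 1 to 4, against 262, 280 and 247 CPM in water 1 to 3, each DSS library above all water libraries. At an unadjusted p under 0.05, 5 of the 10 were higher in DSS and 0 lower, beside 8.36% and 7.35% of all tested genes, and 0 passed adjustment. The list was highest in DSS 2, whereas Hbegf was highest in DSS 3 and Areg lowest in DSS 2. The part of dissociation in these values was not tested.

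**Figure D3:**
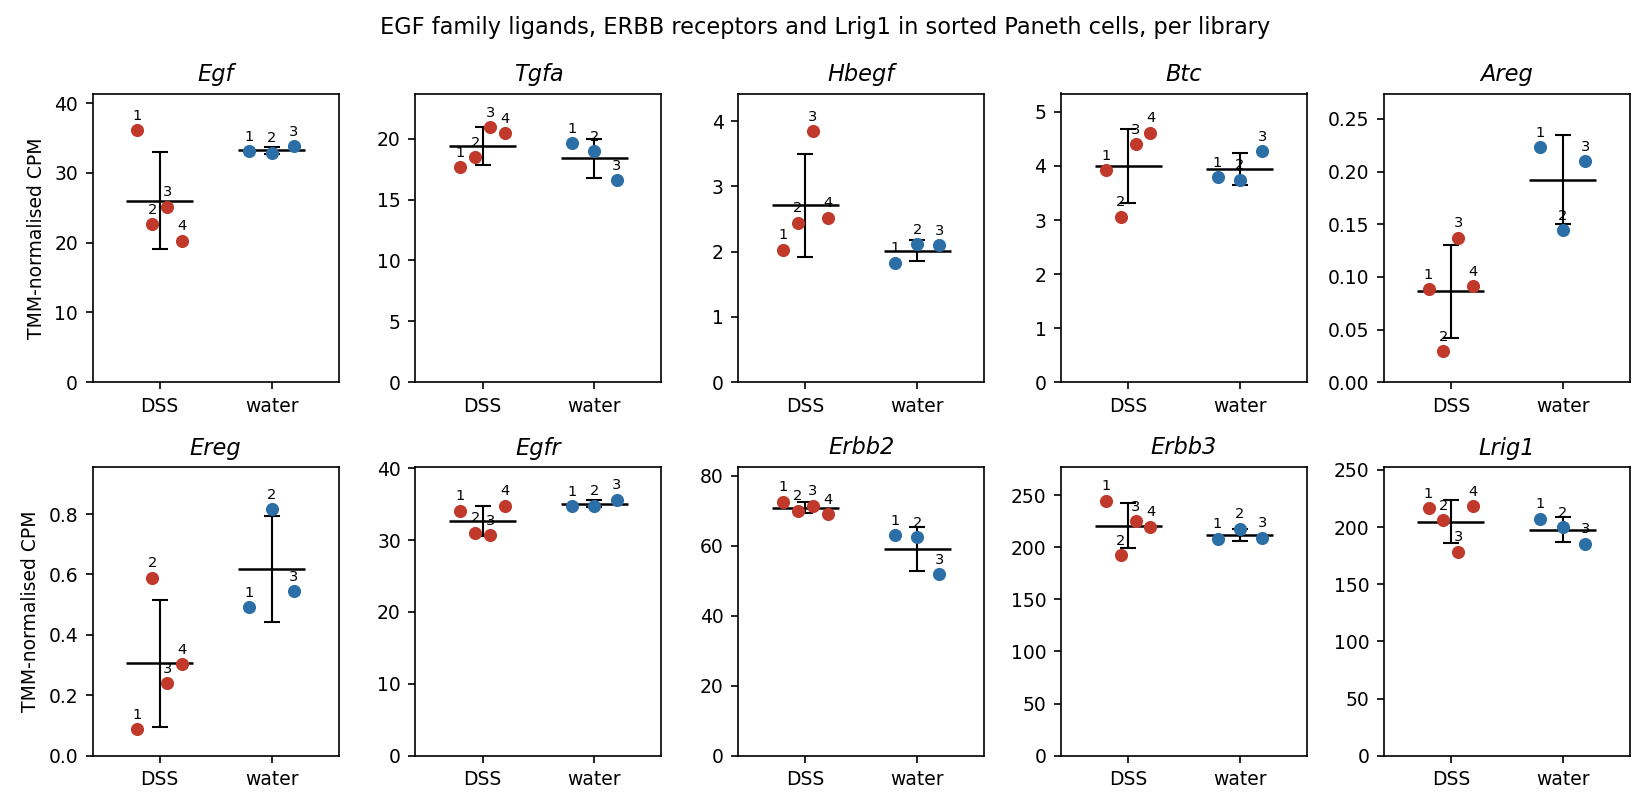
TMM-normalised CPM of each of the 10 genes in each library, with DSS in red on the left and water in blue on the right of each panel. Digits are replicate numbers, horizontal lines group means and error bars SD (n = 4 and 3). Erbb2 is the tested gene whose groups do not overlap, and Areg rests on 1 to 5 counts per library.

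Among the receptors, only Erbb2 had every DSS library above every water library, as did 7.40% of all tested genes. Erbb2 had 72.6, 70.0, 71.5 and 69.1 CPM in DSS 1 to 4, against 63.0, 62.5 and 51.9 CPM in water 1 to 3. The 4 DSS libraries lay within 4 CPM of each other and above all water libraries, and water 3, the library with the highest enteroendocrine marker sum, was the lowest. The part of enteroendocrine cells in the Erbb2 values was not tested. Its log2 change was 0.26 ± 0.08 (SE), a 1.198-fold higher level, with a 95% interval of 0.09 to 0.43. This did not pass over all genes (edgeR unadjusted p = 0.00742, adjusted p = 0.182), and Erbb2 ranked 713 among all genes by p.

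The estimate for Erbb2 was above 0 in each of the 18 alternatives run, from 0.18 without water 3 to 0.50 with library totals only. The adjusted p ranged from 0.0350 to 0.570, and the one call came with scaling by library totals, which put the median of all genes at 0.23. Among 10-week mice alone it was 0.44 (edgeR adjusted p = 0.331), with water 3 as the only control. Among lane 6 libraries, with DSS 4 alone on DSS, it was 0.22 (edgeR adjusted p = 0.570).

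Erbb2 overlaps Mien1 on the opposite strand over 9 exon bases, and reads were counted without strand. Genes that followed Erbb2 most closely were Ap4m1, an adaptor subunit for vesicle transport (r = 0.994 over 7 libraries), Mllt1, of the transcription elongation machinery (0.987), and Gtf3c1, of the RNA polymerase III machinery (0.984). Ap4m1 lay between 32.8 and 33.5 CPM in DSS and between 29.6 and 31.9 CPM in water.

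Erbb3, the neuregulin receptor, had 245, 192, 225 and 220 CPM in DSS 1 to 4, against 208, 218 and 209 CPM in water 1 to 3. DSS 2 was the lowest library and DSS 1 the highest. The log2 change was 0.06 ± 0.08 (SE), with a 95% interval of -0.13 to 0.25 (edgeR adjusted p = 0.795). Ratios of Erbb2 to Erbb3 per kilobase were 0.343, 0.420, 0.367 and 0.363 in DSS 1 to 4, against 0.350, 0.331 and 0.286 in water 1 to 3, with DSS 1 inside the water range.

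Egfr, the receptor for EGF and TGF-alpha, had 34.1, 31.0, 30.6 and 34.8 CPM in DSS 1 to 4, against 34.7, 34.8 and 35.6 CPM in water 1 to 3. DSS 1, DSS 2 and DSS 3 lay below all water libraries, DSS 2 and DSS 3 the lowest, and DSS 4 lay within the water range. The log2 change was -0.10 ± 0.07 (SE), with a 95% interval of -0.25 to 0.05 (edgeR adjusted p = 0.494), and it turned to 0.13 with library totals only. DSS 2 and DSS 3 were also the libraries with the highest tuft cell marker sums, 1033 and 1041 CPM, against 557 and 531 CPM in DSS 1 and DSS 4. The part of tuft cells in the Egfr values was not tested. Adcy9, an adenylate cyclase, followed Egfr most closely (r = 0.994), before Nemp1 (0.986), of the nuclear envelope, and Slc17a4 (0.979), an anion transporter.

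Lrig1, whose product lowers the amount of ERBB receptors, had 216, 206, 178 and 218 CPM in DSS 1 to 4, against 207, 200 and 185 CPM in water 1 to 3. The groups overlapped, with DSS 3 the lowest library. Its log2 change was 0.05 ± 0.09 (SE), with a 95% interval of -0.14 to 0.25, or a fold between 0.907 and 1.19 (edgeR adjusted p = 0.821). The stem cell gene Lgr5, which Lrig1 accompanies in crypts, had 118, 76.7, 56.7 and 62.4 CPM in DSS 1 to 4 and 168, 112 and 102 CPM in water 1 to 3. DSS 3 was the lowest library for both genes, but Lrig1 in DSS 4 was the highest of all 7 while Lgr5 was low there. Lgr5 is 1 of 9 stem cell markers, which summed to between 4320 and 5289 CPM in DSS and between 4445 and 5304 CPM in water. Of the 9, 2 had every DSS library above every water library and 0 below, beside 7.40% and 7.51% of all tested genes.

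The remaining likeness lists were as follows. Lrig1 was followed by Irf2bp2, a transcriptional cofactor (r = 0.969), Clca3b (0.967) and Clybl (0.957), Erbb3 by Ankrd11 (0.944), Ppargc1a, a coactivator of mitochondrial genes (0.943), and Dph6 (0.934), and Tgfa by Lsg1 (0.972), the chaperone gene Hsp90ab1 (0.968) and Nepro (0.963). No gene appeared for more than 1 member.

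**Figure D4:**
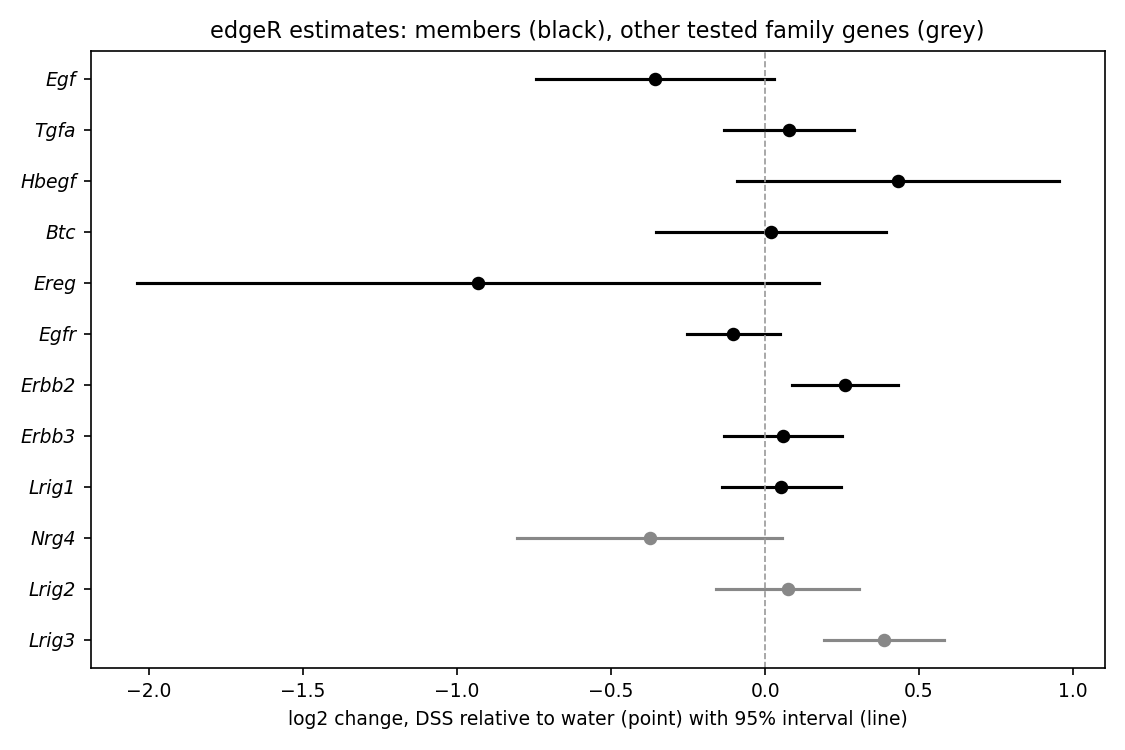
Log2 change of DSS relative to water from edgeR, with 95% intervals, for the 9 tested members (black) and the other tested genes of the family (grey). Erbb2 and Lrig3 have intervals above 0, from 0.09 and 0.19, and neither passed adjustment; the sign of Egfr flips with library totals only.

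Of 8 further genes of the family, 3 passed the filter. Lrig3, a relative of Lrig1, had 29.1, 29.0, 28.6 and 30.8 CPM in DSS 1 to 4, against 23.6, 24.5 and 19.4 CPM in water 1 to 3. The groups did not overlap, and water 3 was again the lowest library, as for Erbb2. The log2 change was 0.39 ± 0.09 (SE), with a 95% interval of 0.19 to 0.58, and did not pass (edgeR adjusted p = 0.138). Lrig2 was at 0.07 ± 0.10 (edgeR adjusted p = 0.782).

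Nrg4, a ligand of ERBB4, had 6.39, 4.12, 5.05 and 4.19 CPM in DSS 1 to 4, against 7.76, 5.86 and 5.50 CPM in water 1 to 3. DSS 1 lay among the water libraries and the other 3 DSS libraries below them, and the log2 change was -0.37 ± 0.19 (SE; edgeR adjusted p = 0.380). Erbb4, its receptor, had 4 counts in all, 2 each in DSS 2 and DSS 3. Nrg1, the mesenchymal neuregulin that binds ERBB3, had 2, 2, 10 and 7 counts in DSS 1 to 4 and 0, 5 and 7 in water 1 to 3. Nrg2 and Nrg3 had between 0 and 2 counts in every library. Epgn, which encodes the ligand epigen, had 1, 7, 1 and 4 counts in DSS 1 to 4 and 0 in each water library, and its summed counts gave 0.118 CPM over the DSS group. A limit of 3 counts over the water group corresponds to 0.0408 CPM, and the exact Poisson 95% limit to 0.0501 CPM.

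The wider EGF receptor pathway was described through 5 lists of 63 genes, the 8 further family genes included, of which 56 were tested and 0 passed adjustment. At an unadjusted p under 0.05, 9 of the 56 were higher in DSS and 5 lower, beside the 8.36% and 7.35% of all genes given above. The median log2 change was 0.0088. Of the ligand release machinery, 1 of 7 tested genes was higher at that level and 0 lower. Rhbdf1, which encodes an inactive rhomboid that escorts the sheddase ADAM17, averaged 27.3 ± 1.86 CPM in DSS and 22.3 ± 2.70 CPM in water, a log2 change of 0.30 ± 0.09 (edgeR adjusted p = 0.202). Frmd8, which holds that complex at the cell surface, was at 0.20 ± 0.10 (0.346) and the rhomboid protease gene Rhbdl2 at -0.33 ± 0.19 (0.441). Of the sheddases themselves, Adam17 stood at 32.1 CPM in DSS and 31.0 CPM in water and Adam10 stood at 103 CPM in DSS and 98.6 CPM in water. In this list, 2 of 7 tested genes, Rhbdf1 and Adam10, had every DSS library above every water library, and 0 below. Over all tested genes these shares were 7.40% and 7.51%.

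Of 14 adaptors, 3 were higher and 1 lower at that level, beside 8.36% and 7.35% of all tested genes, and 0 passed adjustment. Plcg1, a phospholipase recruited by active receptors, averaged 26.0 ± 1.96 CPM in DSS and 20.4 ± 1.59 CPM in water (log2 change 0.35 ± 0.09, edgeR adjusted p = 0.143). Vav2, a protein phosphorylated by active receptors, was at 0.26 ± 0.06 (0.143), and Nck1, an adaptor to the actin cytoskeleton, at -0.20 ± 0.08 (0.263). Grb2, the adaptor that links receptors to Ras, averaged 46.0 CPM in both groups.

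Of 16 genes that remove or silence receptors, 1 was higher and 4 lower at that level, beside 8.36% and 7.35% of all tested genes, and 0 passed adjustment. Rnf41, a ubiquitin ligase known to act on ERBB3, averaged 29.8 ± 1.44 CPM in DSS and 24.4 ± 0.859 CPM in water (log2 change 0.29 ± 0.07, edgeR adjusted p = 0.138). Cblb, a ubiquitin ligase for active receptors, averaged 42.3 ± 3.88 CPM in DSS and 51.9 ± 2.22 CPM in water (-0.29 ± 0.08, adjusted p = 0.164). Errfi1, a feedback inhibitor that binds the EGFR kinase, averaged 20.4 ± 1.18 CPM in DSS and 24.7 ± 2.40 CPM in water (-0.27 ± 0.08, adjusted p = 0.197). In this list every DSS library lay below every water library for 4 of 16 genes and above for 1, against 7.51% and 7.40% of all tested genes.

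Of 16 tested feedback regulators and ERK targets, 3 were higher at that level and 0 lower, beside 8.36% and 7.35% of all tested genes. The list median was 0.18, and 0 passed adjustment. Myc averaged 83.5 ± 6.38 CPM in DSS and 65.8 ± 6.99 CPM in water (log2 change 0.35 ± 0.09, edgeR adjusted p = 0.157). Fos was at 0.90 ± 0.30 (0.223), with 109 CPM in DSS 2 and between 40.6 and 58.3 CPM in the other DSS libraries, against 28.6 to 43.3 CPM in water, and Ccnd1 at 0.23 ± 0.09 (0.282). Fos and Egr1 stand in the immediate early list as well, and Myc and Ccnd1 are also Wnt targets. The phosphatase gene Dusp6, a feedback target of ERK, had 23.9, 27.6, 13.6 and 28.7 CPM in DSS 1 to 4, against 30.2, 29.4 and 33.8 CPM in water 1 to 3. Every DSS library lay below every water library, and the log2 change was -0.41 ± 0.22 (edgeR adjusted p = 0.403). Dusp6 was the 1 of 16 tested genes in this list with every DSS library below, and 3 had every DSS library above. Over all tested genes these shares were 7.51% and 7.40%. Spry1 and Spry2, also feedback regulators, were among the 3 above, at 0.21 ± 0.12 (edgeR adjusted p = 0.433) and 0.20 ± 0.12 (0.454).

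**Figure D5:**
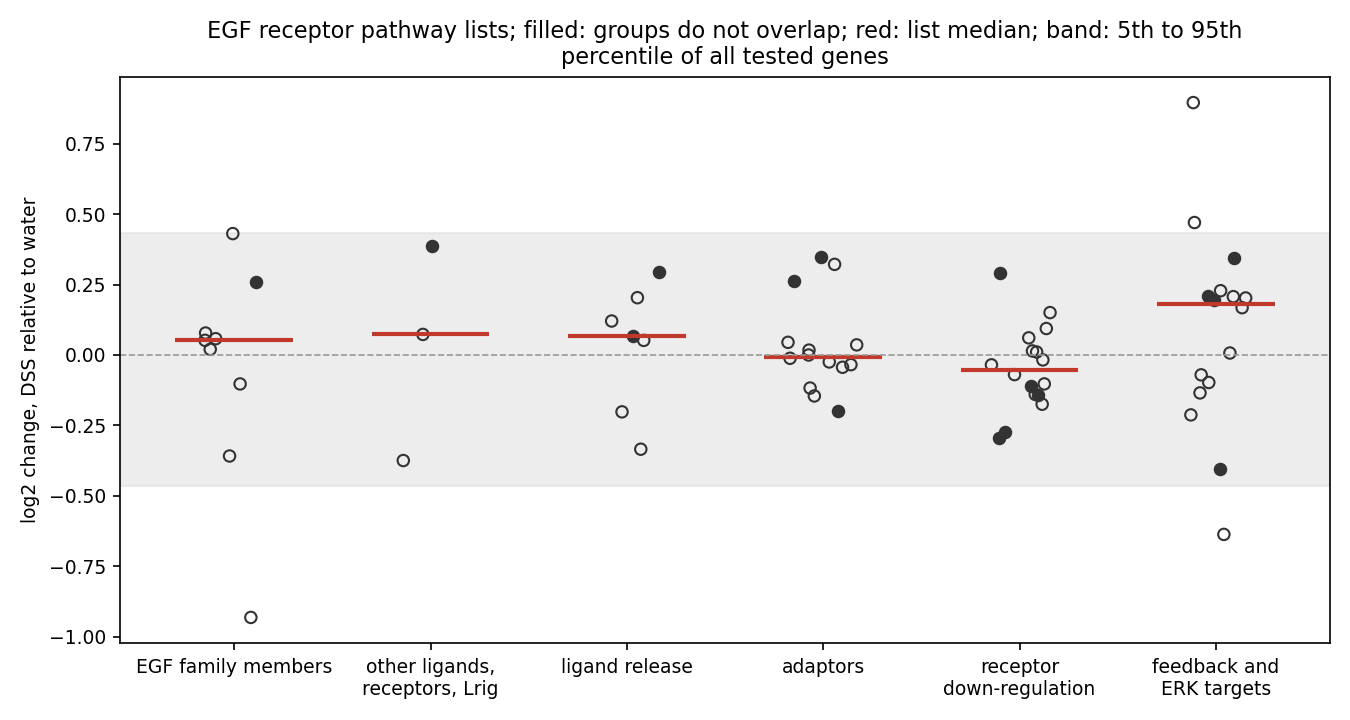
Log2 change of DSS relative to water for the tested genes of the family and of 5 pathway lists, 1 point per gene. Filled points are genes whose groups do not overlap, red lines list medians, and the grey band holds all tested genes from the 5th to the 95th percentile (-0.46 to 0.43). List medians lie between -0.05 and 0.18, and 0 of these genes passed adjustment.

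Coordinates follow the count files, which use mm10, and each value is the sum over the exons of a gene, UTRs included. Egf (ENSMUSG00000028017.7) occupies 129677565 to 129755316 of chromosome 3 (minus strand), and Tgfa (ENSMUSG00000029999.14) 86195223 to 86275719 of chromosome 6 (plus strand). Ereg (ENSMUSG00000029377.5, 91074622 to 91093646, plus), Areg (ENSMUSG00000029378.5, 91139599 to 91148432, plus) and Btc (ENSMUSG00000082361.6, 91357261 to 91402994, minus) are neighbours on chromosome 5. Egfr (ENSMUSG00000020122.16, 16752203 to 16918158) and Erbb2 (ENSMUSG00000062312.5, 98412470 to 98437716) lie on chromosome 11, both on the plus strand. Erbb3 (ENSMUSG00000018166.8) spans 128567523 to 128589652 on chromosome 10, and Lrig1 (ENSMUSG00000030029.14) spans 94604529 to 94700158 on chromosome 6, both on the minus strand. Hbegf (ENSMUSG00000024486.5) spans 36504929 to 36515805 on chromosome 18, also on the minus strand. Exons of Egf overlap antisense genes over 607 and 500 bases, out of 11275, and those genes had between 2 and 17 counts per library. Lrig1 overlaps Slc25a26 over 144 bases, with 134 to 240 counts per library for Slc25a26.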

How the data were processed

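Crypts of the small intestine were freed with EDTA and dissociated, per the labels' protocols; live single cells were gated on CD24 and side scatter, without TER119, CD31 or CD45, and CD117 was stained too. The deposited tables hold raw counts of reads per gene. Per the file headers, featureCounts 1.5.3 assigned primary alignments to exons of GENCODE release 15 (overlap fraction 0.8, no strand option), and exon lengths stand beside the counts. STAR 2.5.3a, featureCounts 1.5.2, DESeq2 and mm10 appear in the submitters' processing notes.

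Symbols came from GENCODE release 21 for 52403 of 52550 genes. DSS was compared with water in edgeR 4.0.16 (R 4.3.3; filterByExpr, TMM, quasi-likelihood test, no covariate) over 17449 genes, with Benjamini-Hochberg adjustment at 0.05. DESeq2 1.42.0, limma 3.58.1, other scalings and filters, age, lane, left-out libraries and a number shared by 3 titles were alternatives. The fit was tested on simulated data. The most alike pair of libraries still differed by a chi-square of 14.5 per degree of freedom. At these depths 3 counts are 0.0924 to 0.129 CPM. Members and lists were chosen with earlier results of these data known.

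The text names all 10 members, 8 further family genes, up to 3 genes with the smallest p from each other pathway list and, for members averaging at least 3 log2 CPM, the 3 genes with the highest Pearson correlation of log2 CPM (prior count 2), leaving out predicted or unnamed symbols and pseudogenes. Adam10, Adam17, Grb2, Dusp6, Spry1, Spry2, Lgr5 and the markers Lyz1, Mmp7, Clca1 and Agr2 lie outside this rule and were chosen after their values were seen.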

Additional observations from a re-analysis of the deposited data

Results flagged for a closer look

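Dixon's ratio sets the gap between an extreme library and its nearest neighbour against the range of its group. Of 44 named genes over the 4 DSS libraries, 1 exceeded the limit, where about 5% would do so by chance. It was Nck1 in DSS 3 (ratio 0.853), with 26.2 CPM there against 29.5 to 30.2 CPM in the other DSS libraries and 30.7 to 34.8 CPM in water.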

How the results depend on the processing

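Over all alternatives, 150 of the members' log2 changes kept their direction and their side of the threshold, 2 passed and 9 turned. Erbb2 passed at 0.50 with library totals only, where Egfr turned to 0.13, and Egf passed without DSS 1, with a range of -0.55 to -0.26 over the left-out libraries. Btc, near 0 in the main comparison, turned to -0.022 with age as a covariate, to -0.088 among 10-week mice and ranged from -0.058 to 0.13 over the left-out libraries. The genes called were 2107 higher and 28 lower with library totals only (which shifts the median of all genes to 0.23), 347 and 297 with DESeq2, 240 and 201 without a low-count filter and 3 and 6 among lane 6 libraries. Leaving out each library gave 0 to 168 higher and 0 to 135 lower, with 168 and 135 without DSS 1 and 9 and 0 without DSS 4. In the main comparison 1459 genes were higher and 1283 lower at an unadjusted p under 0.05, and limma-voom called 0 in each direction. The causes were not tested. Ordered by CPM in place of RPKM, Erbb3 was at rank 1 and Lrig1 at rank 2, Egf at 5 and Tgfa at 6, Btc at 7 and Hbegf at 8, and Ereg at 9 and Areg at 10. No paired analysis was possible because the replicate numbers follow accession order and pair no samples. DSS 2, DSS 3 and water 3 share a number in their titles, whose meaning the labels do not give. A fit of these 3 libraries alone, added after seeing the data and with water 3 assumed to vary like DSS, called 17 genes higher and 41 lower and 0 members, with Erbb2 at 0.45 and Egf at -0.50, while Erbb3 turned to -0.0049 and Btc to -0.20. Depth limits Areg and Ereg, at most 20 counts per library.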
